A study of Mus musculus with 2 samples.

Results

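The mouse genome carries 6 genes of the miR-99/100 and miR-125 microRNA (miRNA) families: Mir99a, Mir99b and Mir100 in the first, and Mir125a, Mir125b-1 and Mir125b-2 in the second. They were chosen by gene symbol in the GENCODE M21 annotation and are 6 of the 2202 miRNA genes counted. The samples were left cerebral cortex from male B6CASTF1/J mice, a hybrid of the B6 and CAST strains, aged 10 days after birth and untreated as far as the labels say. The labels describe a single group with biological replicates 1 and 2, whose specimens carry different male numbers under the same donor entry, and each gave 1 microRNA sequencing library. No second tissue, age or treatment was measured, so the levels are a description, and the only test compares the reads of the 2 libraries with each other.

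A miRNA gene is transcribed as a hairpin, from which a short mature strand is cut from either arm (5p or 3p). The mature strand guides the Argonaute protein to messenger RNAs that pair with its seed, bases 2 to 8. miR-125 is the mammalian counterpart of lin-4 of the worm Caenorhabditis elegans. In the worm, lin-4 represses lin-28, and both lin-4 and let-7 take part in the timing of larval development. In mammals, miR-125 and let-7 accumulate as neural cells differentiate, and both have target sites in Lin28 messenger RNA. miR-99 and miR-100 are related in sequence to miR-10 and have been shown to repress the growth kinase mTOR in human cells.

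The mature strands show which members a read can tell apart. Both arms of all 6 genes are in RefSeq (GRCm38.p6), and capitals mark the seed. The first 3 strands share the miR-99/100 seed, and the rest share the seed of miR-125, which the mouse gene Mir351 also carries.
miR-99a-5p (chromosome 16): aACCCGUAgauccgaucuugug
miR-100-5p (chromosome 9): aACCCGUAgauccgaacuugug
miR-99b-5p (chromosome 17): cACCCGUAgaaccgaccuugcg
miR-125a-5p (chromosome 17): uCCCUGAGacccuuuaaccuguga
miR-125b-5p (chromosomes 9 and 16): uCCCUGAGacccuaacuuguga
miR-351-5p (chromosome X): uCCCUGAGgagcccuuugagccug

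With positions counted from 1 at the 5′ end, miR-99a-5p and miR-100-5p differ by the single substitution U16A (the base of miR-99a first). miR-99a-5p and miR-99b-5p differ by A1C, U11A, U16C and U21C, so all 3 of these strands can be told apart by a full-length exact match. miR-125a-5p is 24 bases long and shares its first 13 bases with miR-125b-5p. The 5p strand of Mir125b-1 and Mir125b-2 is identical in all 22 bases. In the hairpins the identity extends to 24 bases, which hold the mature strand and the 2 bases before it and stop at its last base. Among the 2202 hairpins, miR-125b-5p matched exactly in 2, whereas the 5p strands of Mir99a, Mir99b, Mir100 and Mir125a each matched exactly in 1. With 1 mismatch allowed, miR-99a-5p and miR-100-5p each matched both the Mir99a and the Mir100 hairpin.

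Reads mapped to more than 1 place were counted for no gene, and they made up 51.2% of mapped reads in replicate 1 and 49.2% in replicate 2. A read of miR-125b-5p alone therefore could not be assigned to Mir125b-1 or Mir125b-2. Their counts can hold only reads that reach beyond the shared bases or come from the 3p arm, and they are lower limits for miR-125b. The 3p strands of the 2 genes differ by 5 substitutions (G3A, G4A, U7C, C11U and G20C, the base of Mir125b-1 first), which is why they are given here.
miR-125b-1-3p (chromosome 9): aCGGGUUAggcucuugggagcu
miR-125b-2-3p (chromosome 16): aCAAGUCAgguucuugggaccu

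The members lie in 3 clusters, each in the order miR-99/100, let-7, miR-125 along the plus strand (GENCODE M21 on mm10). On chromosome 16, Mir99a (77598936 to 77599000) was followed after 656 bases by Mirlet7c-1 (77599657 to 77599750) and after a further 46522 bases by Mir125b-2 (77646273 to 77646343), in introns of the noncoding RNA gene Mir99ahg. On chromosome 9, Mir100 (41531425 to 41531504), Mirlet7a-2 (41536716 to 41536811) and Mir125b-1 (41581926 to 41582002) spanned 50578 bases in introns of 3110039I08Rik. Mir125b-1 also lies in the exon of the sense-intronic RNA Gm28119. Mir125b-2 also overlaps an exon of C130023A14Rik on the same strand, and Mir100 overlaps an exon of the noncoding RNA gene Gm48742 on the opposite strand. On chromosome 17, Mir99b (17830188 to 17830257), Mirlet7e (17830352 to 17830444) and Mir125a (17830812 to 17830879) spanned only 692 bases. Mir99b and Mirlet7e lie in introns of the protein-coding gene Spaca6, and Mir125a overlaps an exon in 1 of its 16 annotated transcripts.

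Reads on the strand of a listed miRNA gene numbered 2677910 in replicate 1 and 1750076 in replicate 2, and levels are given as counts scaled to these totals (CPM). A count of 3 reads equals 1.12 CPM in replicate 1 and 1.71 CPM in replicate 2. Of 9 neuronal marker genes, 6 reached 2 CPM in both libraries, with a summed level of 44420 CPM in replicate 1 and 34762 CPM in replicate 2. The other 3 were the genes of the neuronal miR-124, whose hairpins share stretches of 31 or 32 bases, with at most 3.73 CPM. The liver marker Mir122 had 55.6 CPM in replicate 1 and 45.1 CPM in replicate 2. Of 7 striated muscle genes, Mir206, Mir208a and Mir208b summed to 35.8 CPM in replicate 1 and 46.9 CPM in replicate 2. The other 4, the paired copies of miR-1a and miR-133a, had no assigned reads, but the copies share 28 and 31 bases, so reads within those stretches could not be assigned and the 0 says little about muscle. In bulk tissue, fewer cells of a type and less RNA per cell cannot be told apart.

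All 6 members were found at 2 CPM or more in both libraries, as were 442 of the 2202 genes. Together they averaged 4.38% ± 1.04 of the counted reads (SD, n = 2), at 5.12% in replicate 1 and 3.65% in replicate 2. Their mean levels ran between 558 and 17477 CPM with a median of 5539 CPM, against a median of 89.4 CPM over the 442 genes. By mean CPM they ranked 13, 19, 30, 45, 69 and 139 among all genes.

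The share of counted reads from the miR-99/100 genes was 3.53% in replicate 1, with a 95% Wilson interval of 3.51 to 3.55, against 2.18% in replicate 2, with 2.16 to 2.20. Mir99a was the most abundant member, with 19769 CPM (52940 reads) in replicate 1 and 15186 CPM (26576 reads) in replicate 2, and averaged 17477 ± 3241 CPM (SD, n = 2). Mir99b had 10801 CPM (28925 reads) in replicate 1 and 3283 CPM (5745 reads) in replicate 2, a mean of 7042 ± 5316 CPM. Its SD was 75.5% of its mean, the widest spread among the 6 genes. Mir100 had 4738 CPM (12688 reads) in replicate 1 and 3335 CPM (5836 reads) in replicate 2, a mean of 4036 ± 992 CPM. All 3 genes were higher in replicate 1, as were 298 of the 542 genes tested and 66 of the 105 genes with a mean of 1000 CPM or more.

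For the miR-125 genes the share was 1.59% in replicate 1, with an interval of 1.58 to 1.60, against 1.47% in replicate 2, with 1.45 to 1.48. Mir125a had 12796 CPM (34267 reads) in replicate 1 and 11282 CPM (19745 reads) in replicate 2, and averaged 12039 ± 1070 CPM (SD, n = 2). Its 5p strand matched no other hairpin. Mir125b-1 had 2664 CPM (7135 reads) in replicate 1 and 2707 CPM (4737 reads) in replicate 2, a mean of 2686 ± 29.9 CPM. Mir125b-2 had 439 CPM (1175 reads) in replicate 1 and 677 CPM (1185 reads) in replicate 2, a mean of 558 ± 169 CPM. The levels of the miR-125b genes leave out the reads of their common 5p strand, so their place below Mir125a says nothing of the amounts of mature miR-125b and miR-125a.

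**Figure D1:**
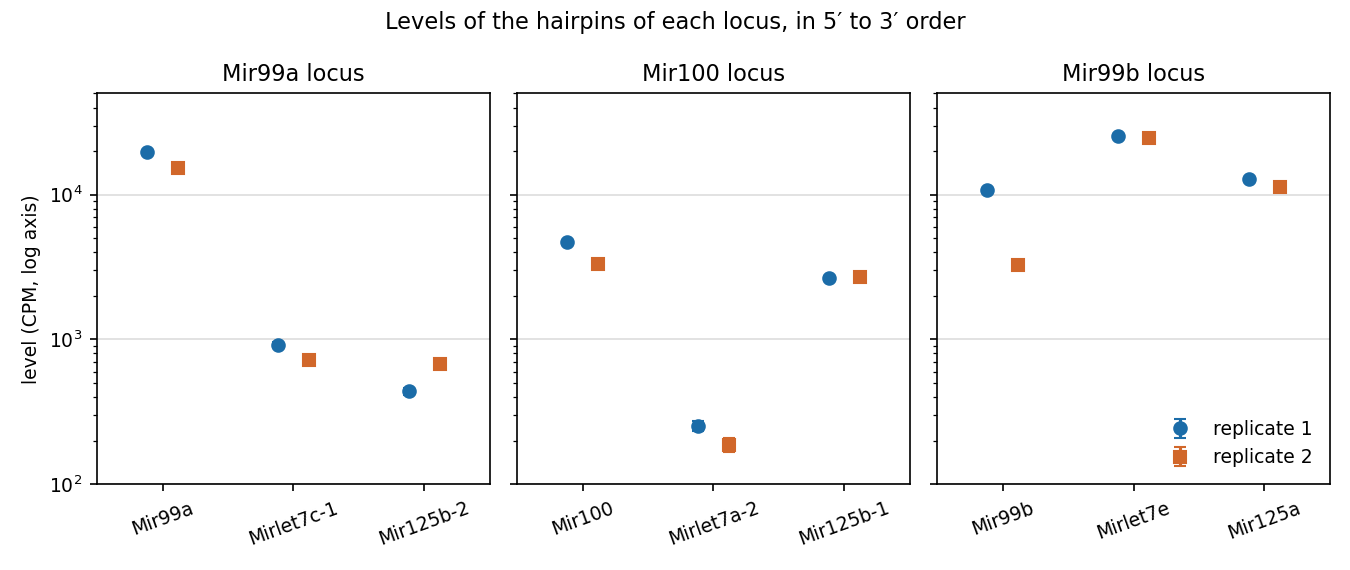
Level in CPM (log axis) of the 3 hairpins of each locus in 5′ to 3′ order, with 1 point per library; bars are 95% Wilson intervals, which are smaller than the points for most genes. Mir99b is 10801 CPM in replicate 1 and 3283 CPM in replicate 2, while the 2 libraries lie close together for Mirlet7e and for Mir125a beside it.

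Ordered by mean CPM, Mir99a stood above Mir125a, Mir99b, Mir100, Mir125b-1 and Mir125b-2. The values of the 2 libraries did not overlap between neighbours in this order, except between Mir99b and Mir100, whose order turned round: Mir99b was the higher in replicate 1 and Mir100 in replicate 2. The order of the means was the same when levels were divided by hairpin length (65 to 80 bases). Mir99a held 45.1 times the reads of Mir125b-2 in replicate 1 and 22.4 times in replicate 2. The members share the 2 libraries. Even an unpaired permutation test of 2 values against 2 cannot give a two-sided p below 0.333, so the order is a description.

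Within the miR-99/100 family, Mir99a held 56.0% of the reads in replicate 1 and 69.6% in replicate 2. Mir99b held 30.6% and 15.1% of the family's reads in replicates 1 and 2. The share of Mir100 was close in both, at 13.4% and 15.3%. Within the miR-125 family, Mir125a held 80.5% and 76.9%, Mir125b-1 held 16.8% and 18.5%, and Mir125b-2 held 2.76% and 4.62%. These are shares of assigned reads, which leave out reads of the 5p strand common to the miR-125b genes. They are therefore not shares of the mature miRNAs. Mir99b was thus the member whose part in its family differed most between the libraries.

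**Figure D2:**
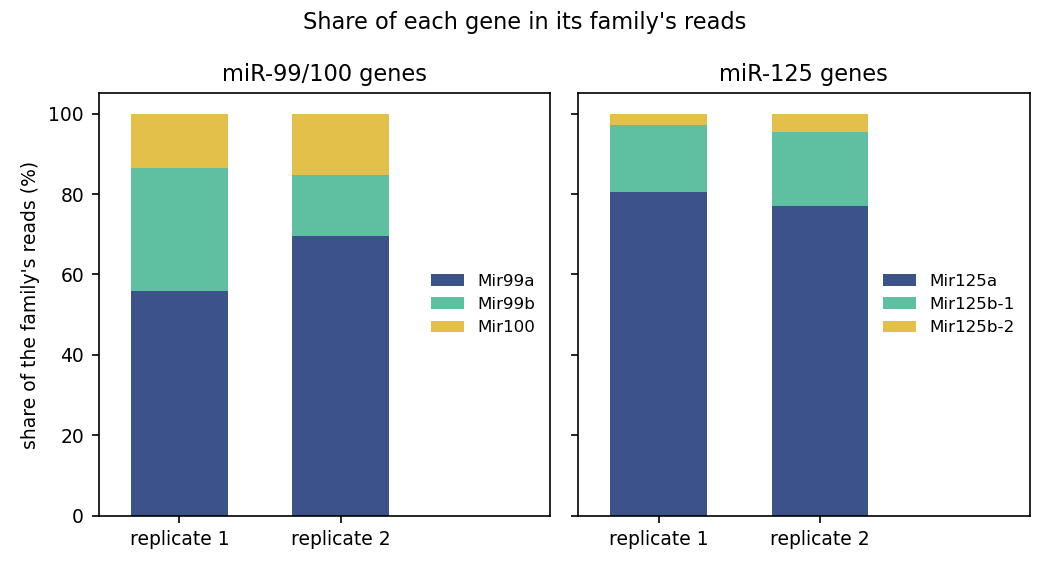
Share of each gene in the reads of its family (%), stacked per library. Mir99b takes 30.6% of miR-99/100 reads in replicate 1 and 15.1% in replicate 2, and Mir125a takes most assigned miR-125 reads in both libraries. Reads of the 5p strand common to the miR-125b genes are left out.

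Between the libraries, 1 of the 6 members, Mir99b, differed by the criterion used for all genes. A gene met it with a log2 ratio of size 1 or above and an adjusted p under 0.05 in Fisher's exact test (two-sided, Benjamini-Hochberg over 542 genes), which compares these libraries and not conditions. Of all genes tested, 12.0% met it (65 of 542), so 1 of 6 is near the background. Mir99b had a log2 ratio, replicate 1 over replicate 2, of 1.72 (95% exact binomial counting interval 1.68 to 1.76), or 3.29-fold. Of the 105 genes with a mean of 1000 CPM or more, 3 had a larger ratio in size.

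The other members differed less. The log2 ratio was 0.51 for Mir100 (0.46 to 0.55), 0.38 for Mir99a (0.36 to 0.40) and 0.18 for Mir125a (0.16 to 0.21). It was -0.02 for Mir125b-1 (-0.08 to 0.03), with an adjusted p of 0.545 in Fisher's exact test, and -0.63 for Mir125b-2 (-0.74 to -0.51), which was lower in replicate 1. Without the minimum on the ratio, 5 of 6 members passed, all but Mir125b-1, against 42.3% of all genes. Depth bears on this count, as 92 of the 105 genes with a mean of 1000 CPM or more passed too, and 5 of the members are that abundant. The median log2 ratio was 0.28 over the 6 members, 0.09 over all genes tested and 0.10 over the 105 abundant genes. The median size of the log2 ratio was 0.44 over the members, 0.46 over all genes tested and 0.22 over the abundant genes.

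**Figure D3:**
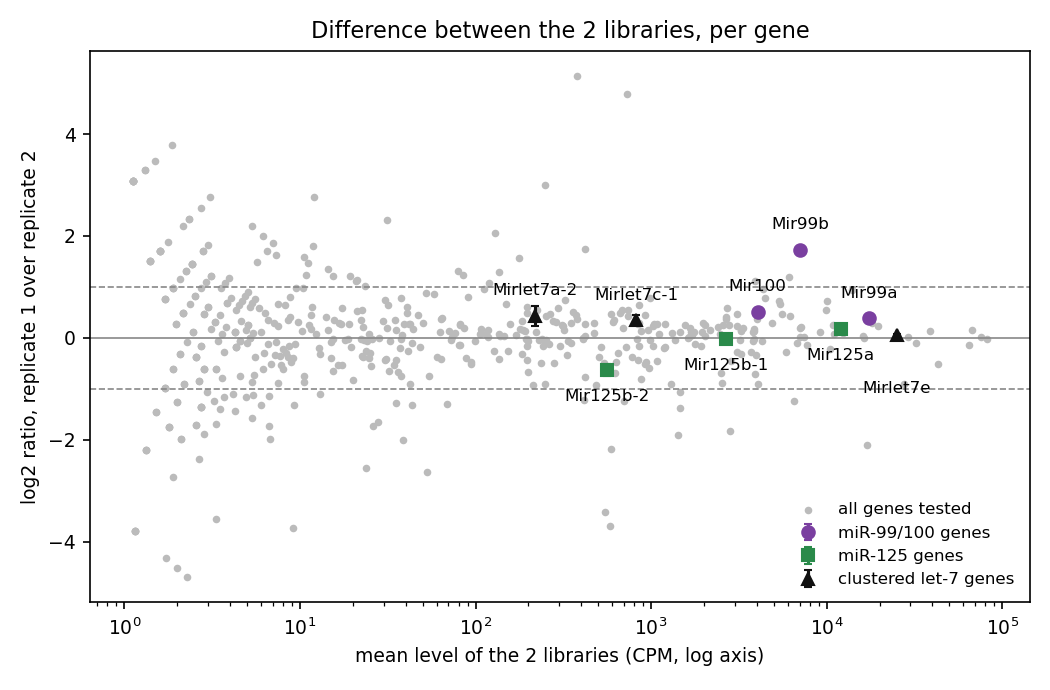
Log2 ratio of replicate 1 over replicate 2 against mean CPM (log axis) for all 542 genes tested, with the 6 members and their clustered let-7 genes in colour; bars are 95% counting intervals and dashed lines mark a log2 ratio of 1 in either direction. Mir99b, at 1.72, is the only member outside the dashed lines.

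Summed levels of some marker lists also differed between the libraries. Detection of a gene meant that neither library fell under 2 CPM. The 3 erythroid genes, all detected, summed to 814 CPM in replicate 1 and 56.6 CPM in replicate 2. Most of that sum was Mir451a, at 737 and 20.6 CPM, whereas Mir486 had 25.4 and 25.7 CPM. The 6 choroid plexus and ependyma genes, 3 of them detected, summed to 1120 CPM in replicate 1 and 2768 CPM in replicate 2. Against that sum, Mir449b had 1.12 and 0 CPM. The 4 astroglial genes, all detected, summed to 1148 and 1558 CPM, opposite in direction to Mir99b, and the 3 oligodendrocyte genes, all detected, to 834 and 1423 CPM. Against the sums of their lists, the astroglial Mir29b-2 had 45.9 and 37.7 CPM and the oligodendrocyte Mir219a-1 had 20.9 and 17.1 CPM. The other genes of both lists went with the sums. No gene of these 4 lists was at 0 in both libraries. The 3 neural Mir9 genes, 2 of them detected, summed to 203 CPM in replicate 1 and 108 CPM in replicate 2, the direction of Mir99b. Sequence shared among the Mir9 hairpins was not examined, so this sum may leave out multiply mapped reads and need not give the level of miR-9. Neuronal genes summed to 1.28 times as much in replicate 1, but did not move together. Mir128-1 had 18242 CPM in replicate 1 and 9510 CPM in replicate 2, whereas Mir132 had 3886 CPM in replicate 1 and 9221 CPM in replicate 2, and Mir138-1 had 3151 and 3235 CPM. Other lists were closer between replicates 1 and 2. Microglia and leukocyte genes summed to 1626 and 1598 CPM, and mural genes to 4016 and 4077 CPM. The endothelial Mir126a had 9622 and 11137 CPM, and epithelial genes summed to 85.9 and 82.3 CPM. The part of the differences in marker lists in the result for Mir99b was not tested.

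The difference at Mir99b was not shared by the hairpins next to it. Mirlet7e, which starts 94 bases after Mir99b ends, had 25469 CPM (68203 reads) in replicate 1 and 24521 CPM (42913 reads) in replicate 2, a log2 ratio of 0.05 (0.04 to 0.07). In replicate 1 Mir99b held 0.424 times the reads of Mirlet7e (95% exact binomial interval 0.418 to 0.430), and in replicate 2 it held 0.134 times (0.130 to 0.138), a change of 3.17-fold. Mir99b held 0.844 times the reads of Mir125a in replicate 1 (0.831 to 0.857) and 0.291 times in replicate 2 (0.282 to 0.300). Mir125a held 0.502 times the reads of Mirlet7e in replicate 1 (0.496 to 0.509) and 0.460 times in replicate 2 (0.452 to 0.468), a change of 1.09-fold. These intervals cover counting error only, and the values rest on 1 library each. The 5p strand of Mirlet7e matched exactly in 1 hairpin, but with 1 mismatch allowed it matched 3 (Mirlet7a-1, Mirlet7a-2 and Mirlet7e). Whether let-7a reads were counted for Mirlet7e was not examined.

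At the other loci, the intervals of the 2 libraries overlapped for the ratio of the miR-99/100 gene to let-7 and did not overlap for that of the miR-125b gene. At the Mir99b locus neither ratio to let-7 had overlapping intervals. Interval width follows the reads counted, and how often such intervals overlap among all genes was not computed. Overlap is therefore not read as a difference between the families. Mir99a had 21.5 times the reads of Mirlet7c-1 in replicate 1 (20.7 to 22.4) and 20.9 times in replicate 2 (19.8 to 22.2). Mir100 had 18.9 times the reads of Mirlet7a-2 in replicate 1 (17.4 to 20.4) and 17.8 times in replicate 2 (16.0 to 20.0). Mir125b-2 had 0.478 times the reads of Mirlet7c-1 in replicate 1 (0.445 to 0.512), against 0.934 times in replicate 2 (0.862 to 1.01). Mir125b-1 had 10.6 times the reads of Mirlet7a-2 in replicate 1 (9.79 to 11.5) and 14.5 times in replicate 2 (12.9 to 16.3). The 5p strand of Mirlet7c-1 also matches the Mirlet7c-2 hairpin exactly, and that of Mirlet7a-2 the Mirlet7a-1 hairpin. Reads of both let-7 genes are therefore undercounted, and the size of a ratio to either is not the ratio of the mature miRNAs.

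The ratio of the miR-99/100 gene to the miR-125 gene was thus higher in replicate 1 at all 3 loci. Beside the values for Mir99b and Mir125a above, Mir99a had 45.1 and 22.4 times the reads of Mir125b-2 in replicates 1 and 2, and Mir100 had 1.78 and 1.23 times those of Mir125b-1. The 3 loci were read in the same 2 libraries and are not replicates. The shares of counted reads differed by 1.62-fold for the miR-99/100 genes and 1.08-fold for the miR-125 genes. Within the first, the fold was uneven, at 3.29 for Mir99b, 1.42 for Mir100 and 1.30 for Mir99a. Counts of Mir125b-1 and Mir125b-2 leave out reads of their common 5p strand. The ratios to these genes and the miR-125 share are therefore not those of the mature miRNAs.

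**Figure D4:**
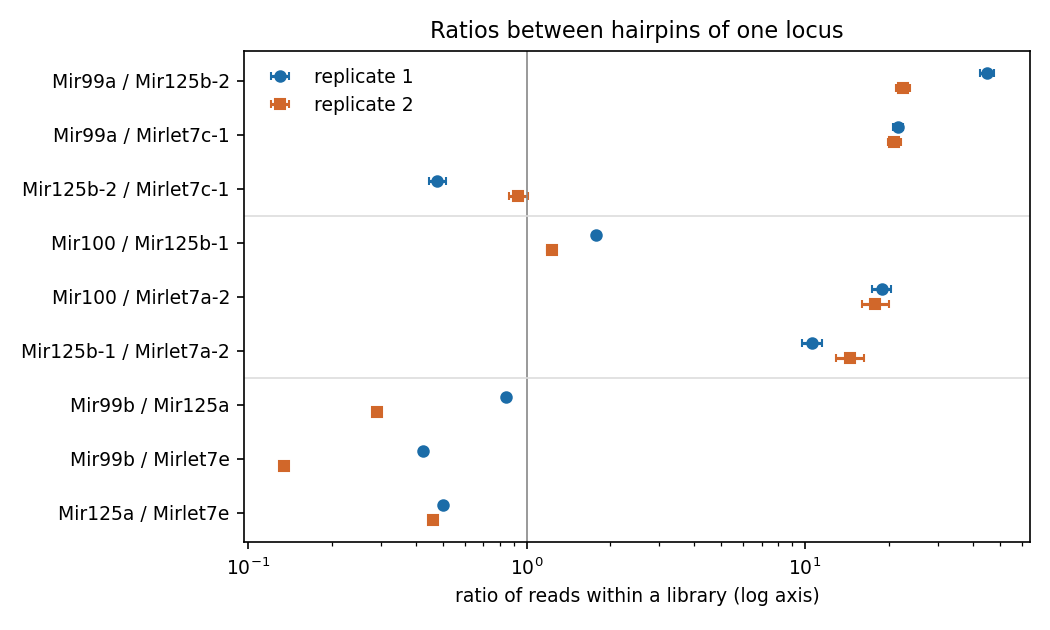
Ratio of reads between hairpins of the same locus within each library (log axis), with 95% exact binomial intervals; the vertical line marks equal reads. The ratios of Mir99a and Mir100 to their let-7 genes have overlapping intervals in the 2 libraries, and those of Mir99b to Mirlet7e are 0.424 and 0.134.

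The strand of the counts mattered for 1 partner. A second annotated miRNA gene, Gm25927, lies on the opposite strand across Mirlet7e. Without regard to strand, Mirlet7e had 0 reads in both libraries, and on its own strand Gm25927 had 0. The 6 members had 0 reads on the opposite strand, and their counts were the same with and without regard to strand.

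By assigned reads, related miRNAs outside the 6 genes were less abundant than most of them. Mir351, which carries the seed of miR-125, had 878 CPM in replicate 1 and 605 CPM in replicate 2, and averaged 741 ± 193 CPM (SD, n = 2). It stood above Mir125b-2 in replicate 1 and below it in replicate 2, and below the other 5 members in both. Mir6367 and Mir6394, whose mature strands hold the same 7 letters at bases 2 to 8, had 0 assigned reads in both libraries. Sequence they share with other hairpins was not examined, so multiply mapped reads may be left out and the 0 sets no upper limit. Mir670 holds the same 7 letters shifted to bases 3 to 9 and had 29.9 and 40.6 CPM in replicates 1 and 2. No other mature strand in the RefSeq table had the miR-99/100 seed. The miR-10 genes, which lie in Hox gene clusters, were low, at 10.8 and 8.57 CPM for Mir10a and 28.0 and 40.6 CPM for Mir10b. None of Mir351, Mir670, Mir10a and Mir10b met the criterion for a difference between the libraries.

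For each member, the gene nearest in level over the 2 libraries was found by Euclidean distance in log2(CPM + 1). Mir99a lay nearest to Mir433 (distance 0.11), Mir125a to Mir30d (0.083), Mir100 to Mir30a (0.098), Mir125b-2 to Mir669c (0.11) and Mir125b-1 to Mir434 (0.19). Mir99b had the most distant neighbour, Mir370 at 0.39, which had 8468 CPM in replicate 1 and 3711 CPM in replicate 2. With 2 libraries, such nearness describes level and no more.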

How the data were processed

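For each library, the authors deposited unnormalized counts by miRNA gene. There are 3 columns, which from their values are unstranded, same-strand and opposite-strand counts. The deposited text names assembly mm10 and annotation M21. Which aligner, counter or trimming was used is not given in the sources used here. The same-strand column was taken, divided by its sum over the 2202 rows that name a gene and scaled to CPM. The 4 rows that name no gene were left out: unmapped reads were 25.5% and 42.4% of all reads in replicates 1 and 2, multiply mapped reads 38.2% and 28.3%, and those outside listed genes 6.93% and 5.74%. A hairpin's value sums both arms, and CAST alleles were not considered.

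Genes at 2 CPM or more in either library were tested with Fisher's exact test, and 0.5 reads were added to each count in a log2 ratio. Replicates are separate males per the labels, with 1 library each, so p-values and intervals cover counting error between these libraries, and PCR copies are not independent molecules. A read was taken as 1 small RNA, so levels were not divided by length. Sequences came from RefSeq and were compared with the M21 hairpins and not with a genome. The test was tried on simulated counts that held counting error only. They had no spread between animals and no PCR copies, so the trial says nothing of how the test treats these. edgeR 4.0.16 in R 4.3.3 gave alternative library totals, and Python 3.11.15 did the rest, using scipy 1.17.1, matplotlib 3.10.9 and numpy 2.4.6. Named were all members, their clustered let-7 genes, miRNAs with the same seed, the miR-10 genes, and the gene nearest in level to each member. The members are defined by gene symbol, but they, the lists and the tests were chosen with earlier results of these data known.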

Additional observations from a re-analysis of the deposited data

How the results depend on the processing

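With reads mapped to more than 1 place added to the total, the mean shares of assigned reads were 1.26% for the miR-99/100 genes and 0.679% for the miR-125 genes, because the total then holds reads of no gene. With reads counted without regard to strand these means were 3.06% and 1.63%, since that total lacks overlapping genes such as Mirlet7e, which then had 0 reads and gave no ratio. The values of the report are 2.86% and 1.53%. Mir99b was the 1 member past the test of the libraries under that column, TMM or median-of-ratios totals, a minimum of 10 CPM and none. Over these 5 settings 53 to 64 genes passed in all, against 65. Without the minimum on the ratio, 5 members and 229 genes passed. Of 35 log2 ratios of members and clustered let-7 genes under other settings, 34 kept direction and call, and that of Mirlet7e was -0.014 with median-of-ratios totals, near 0 either way. Leaving out either replicate leaves 1 library, so the shares ranged over 2.18% to 3.53% for miR-99/100 and 1.47% to 1.59% for miR-125. Levels divided by hairpin length, a setting chosen after seeing the data, gave mean ratios of 36.9 for Mir99a to Mir125b-2, 1.45 for Mir100 to Mir125b-1 and 0.551 for Mir99b to Mir125a, against 33.7, 1.51 and 0.568. Of the ratios to let-7, 4 moved by more than the SD over libraries under that setting: Mir99a to Mirlet7c-1 was 30.7 (21.2 before), Mir100 to Mirlet7a-2 22.0 (18.4), Mir125b-1 to Mirlet7a-2 15.6 (12.5) and Mir125a to Mirlet7e 0.658 (0.481). No paired comparison of conditions was possible because there is 1 group. Depth limits little here, as each member had over 1000 reads per library, but 2 libraries give no test beyond their own reads.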
